A study of Drosophila melanogaster with 12 samples.

Results

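The genes described here are the neuropeptide and peptide hormone genes of Drosophila melanogaster, picked by gene symbol with earlier results of these data known. Of 41 listed genes, 40 were found among the 17510 genes of the count tables. Nplp2 was not matched to an identifier in the tables and is not analysed here. RNA was sequenced from dissected central nervous systems (CNSs) of larvae of the third instar raised at 25 °C, with 60 CNSs pooled per replicate. There were 12 libraries in 4 groups of 3. CTCF0 larvae, which lack both maternal and zygotic CTCF, were set against w1118 wildtype (WT) larvae sequenced with them. Cp190KO larvae, which carry a pair of independently made Cp190 knockout alleles over each other and may keep maternal Cp190, were set against their own w1118 WT larvae. CTCF is a DNA-binding insulator protein and Cp190 a cofactor recruited by several insulator proteins, and the comparisons ask which transcripts depend on each. Both mutations are present in every cell of the animal, so no group isolates the peptide neurons.

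Neuropeptides and peptide hormones are cut from larger precursors, often amidated, packed into dense-core vesicles and released at a distance from fast synapses. Most act on G protein-coupled receptors, while insulin-like peptides act on the receptor tyrosine kinase InR. In the larval CNS each precursor gene is typically expressed strongly in a small, stereotyped set of neurons or neurosecretory cells. These cells control growth, moulting, feeding, water balance and daily rhythms. In RNA from whole CNSs, fewer cells of a type and less RNA per cell cannot be told apart.

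The libraries held between 11652548 and 21522453 counts assigned to genes. CTCF was at 2.33, 1.63 and 2.83 CPM (read counts scaled to library size) in CTCF0, against 39.1, 41.7 and 41.7 CPM in its WT. Cp190 was at 40.9, 30.7 and 24.3 CPM in the libraries labelled Cp190KO, against 47.4, 24.6 and 39.4 CPM in their WT. The Cp190 transcript therefore did not separate these groups and gives no check of their labels. The direction of every change given for the libraries labelled Cp190KO rests on the labels alone, and would turn round if the group labels were exchanged. The paper counts 192 genes up and 248 down in Cp190KO. A DESeq2 test of the libraries as labelled gave 248 higher and 192 lower. In the paper the Cp190 knockout alleles lack the open reading frame of Cp190, which a DsRed marker replaces. Counts per gene do not show which part of the gene the reads came from. Whether the alleles leave a transcript was not tested. The library labelled Cp190KO replicate 3 held 375 genes with 1 to 3 counts, while the other 11 libraries held 1738 to 2199. Summed neuron markers ranged from 444 to 929 CPM in CTCF0, against 583 to 804 CPM in its WT, and from 216 to 958 CPM in the libraries labelled Cp190KO, against 335 to 538 CPM in their WT. Glia markers summed to 550 to 681 CPM in CTCF0, against 381 to 479 CPM in its WT, and to 515 to 667 CPM in the libraries labelled Cp190KO, against 449 to 461 CPM in their WT. The part of these shifts in the results below was not tested.

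The peptide genes spanned more than 3 orders of magnitude in WT CNSs. Per kb of exon, averaged over the 6 WT libraries, Ilp2 was at 271.5 CPM, Capa at 237.6, Hug at 210.4, Ilp5 at 138.1 and SIFa at 118.9. Ilp2 and Ilp5 encode insulin-like peptides of the insulin-producing cells of the brain, Capa encodes peptides that act on the Malpighian tubules, Hug encodes peptides of feeding circuits, and SIFa encodes a peptide of a few brain neurons. Crz, NPF and Ilp3 followed at 111.8, 104.3 and 102.0 CPM per kb. At the lower end, CCHa1 was at 2.25, amn at 0.40, CNMa at 0.25 and RYa at 0.19 CPM per kb. Down this order, the ranges of the 6 libraries overlapped between every pair of neighbours except at the step between CCHa1 and amn and at the step between RYa and the genes listed at 0. RYa had at most 3 counts in any library.

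**Figure D1:**
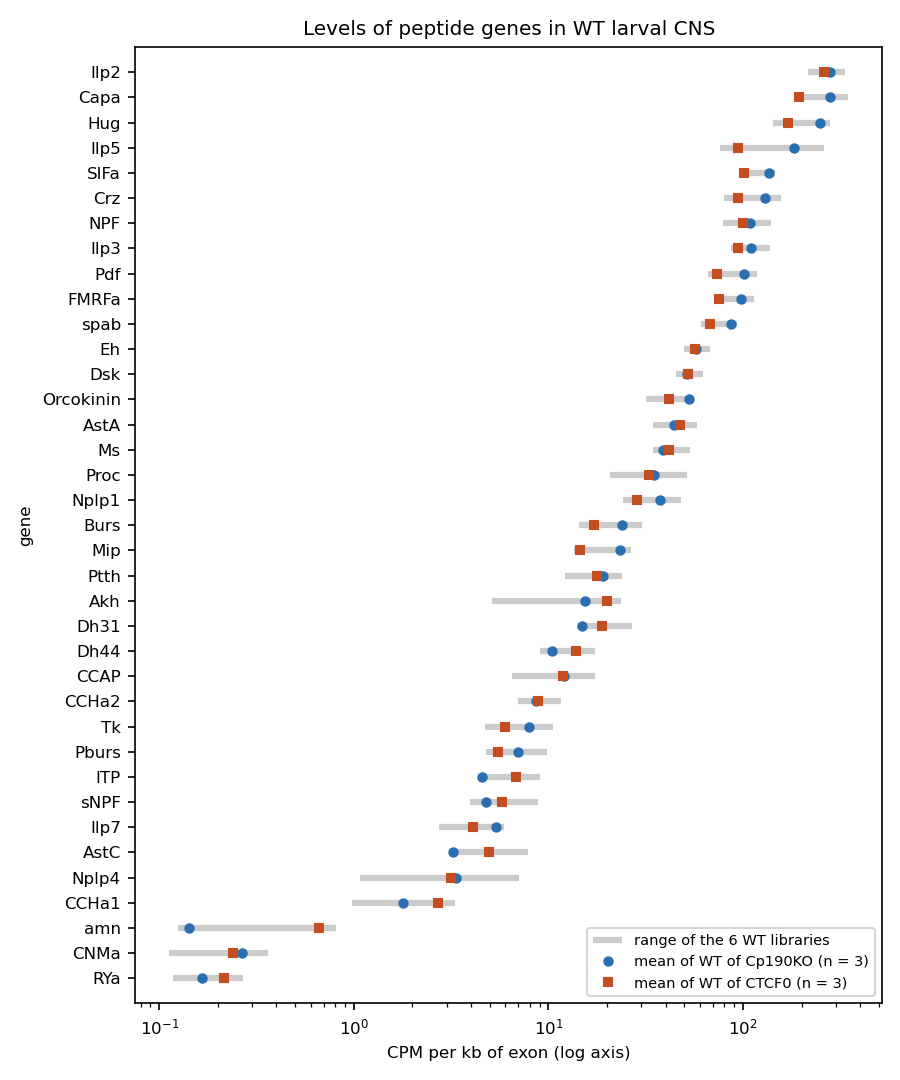
Level of each detected peptide gene in WT larval CNSs, in CPM per kb of exon on a log axis. Squares and circles are the means of the WT of CTCF0 and of the WT of Cp190KO (n = 3 each) and grey bars span all 6 WT libraries. Ilp2, Capa and Hug lead at above 200 CPM per kb and amn, CNMa and RYa lie below 1.

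Lk, ETH and Nplp3 were listed at 0 counts in all 12 libraries. Lk encodes leucokinin and ETH the hormone that triggers ecdysis, made by Inka cells outside the CNS. Opposite-strand genes covered 93.0% of the exonic bases of Lk and 90.5% of those of ETH. Over the whole table, 95 of 109 protein-coding genes with at least 90% of their exonic bases under opposite-strand exons had 0 counts in every library (87.2%), against 1083 of 10102 genes with no such cover (10.7%). The library kit marks strand, and whether the counting used it is not given in the sources used here. The 0 of Lk and ETH is thus a listed value and no level. Among the other members, opposite-strand exons covered 21.1% of SIFa and at most 6.32% of any other.

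In CTCF0 CNSs the hormone gene Akh and the peptide gene Mip rose. Of 35 peptide genes with at least 1 CPM in 3 libraries, 2 were differentially expressed (DE; adjusted p under 0.05 and a fold change over 1.5) and none of them fell. Over all 8718 genes tested, 2.81% were DE and 1.93% were DE and higher. The others did not pass. Of the log2 fold changes of the tested members, 29 of 35 were positive, with a median of 0.35, against 51.2% positive and a median of 0.01 over all genes tested. At an unadjusted p under 0.05 there were 9 higher and 1 lower, where 7.78% of all genes tested were higher and 4.35% lower. The libraries of the 2 groups did not overlap for 9 higher and 1 lower, against 10.0% and 7.35% of all genes. Both DE calls were lost without CTCF0 replicate 1 and without any 1 of the WT libraries (edgeR adjusted p = 0.0542 to 0.179), and were kept without CTCF0 replicate 2 or 3.

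**Figure D2:**
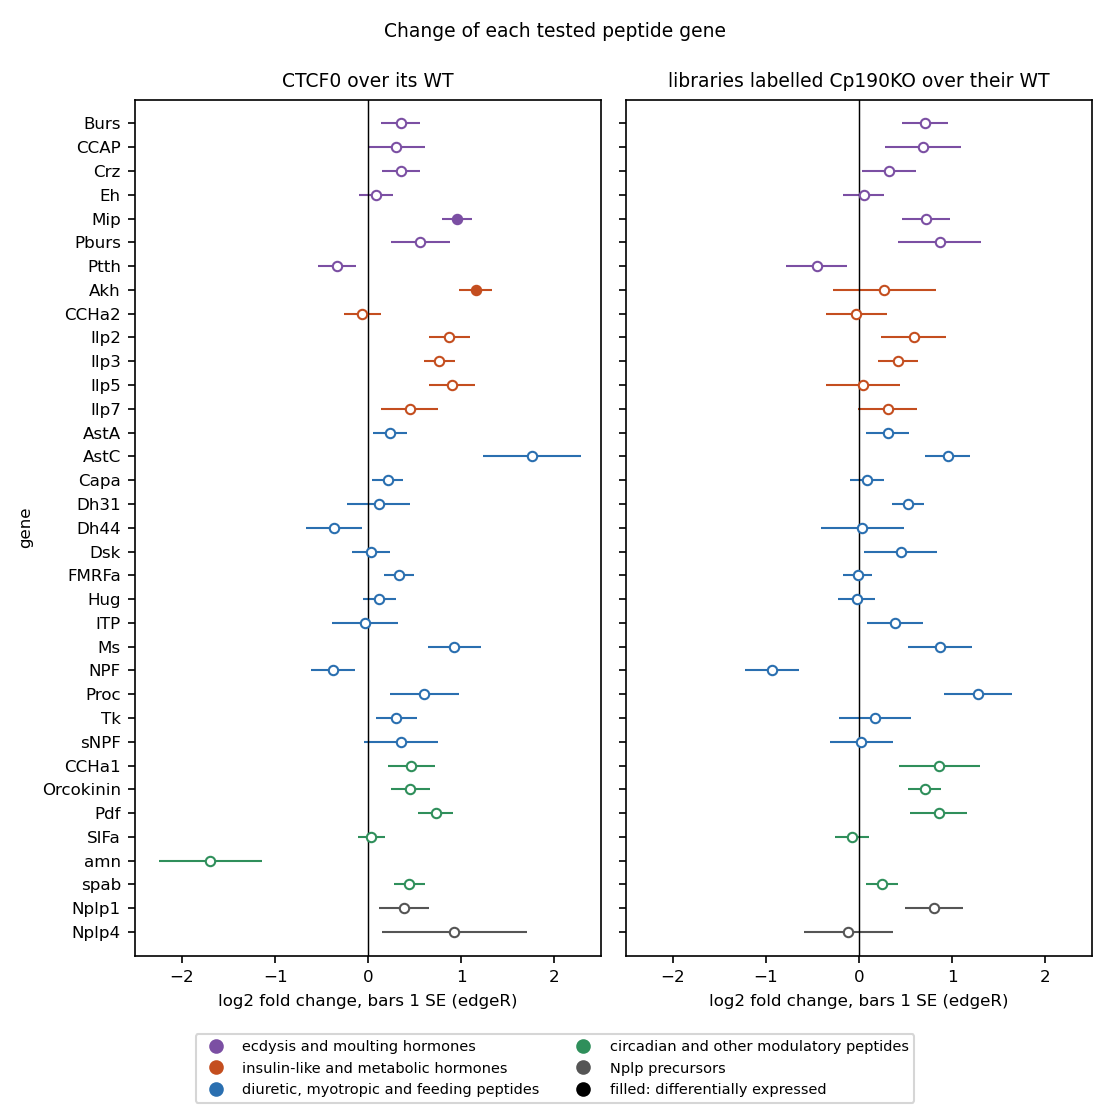
Log2 fold change of each tested peptide gene, coloured by role, in CTCF0 over its WT (left) and in the libraries labelled Cp190KO over their WT (right). Bars are 1 SE of the edgeR estimate and filled points mark DE. Only Mip and Akh are filled, both in CTCF0, and most points lie right of 0 in both panels.

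Mip (3L, 17344947 to 17349666, minus strand of dm6) encodes myoinhibiting peptides, also called B-type allatostatins, which take part in the ecdysis sequence. It was at 35.4, 41.3 and 40.96 CPM in CTCF0, against 20.1, 21.8 and 18.8 CPM in its WT. Every CTCF0 library was above every WT library. The log2 fold change was 0.95 ± 0.16 (SE, edgeR), with an adjusted p of 0.0167. Mip in the libraries labelled Cp190KO was at 38.6, 72.2 and 50.3 CPM, against 34.2, 27.0 and 37.0 CPM in their WT, again with no overlap. That change of 0.71 ± 0.26 did not pass (edgeR adjusted p = 0.29). The receptor of Mip peptides, SPR, was at 12.7, 8.36 and 17.2 CPM in CTCF0, against 11.0, 15.5 and 11.8 CPM in its WT.

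Akh (3L, 4141467 to 4142070, plus strand) encodes adipokinetic hormone, which mobilises stored sugar and lipid. It was at 25.0, 24.0 and 23.0 CPM in CTCF0, against 10.4, 10.2 and 11.8 CPM in its WT. The groups did not overlap, and each held little spread. The log2 fold change was 1.15 ± 0.18 (edgeR adjusted p = 0.00964). Akh is made not by CNS neurons but by the corpora cardiaca, a part of the ring gland, which is attached to the brain. In one fit of all 12 libraries the change was 1.14 and did not pass (edgeR adjusted p = 0.28). Akh in the libraries labelled Cp190KO was at 14.0, 7.01 and 8.75 CPM, against 2.76, 9.25 and 12.7 CPM in their WT, and these groups overlapped. The Akh receptor gene AkhR stayed below 0.4 CPM in every library and was not tested.

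None of the other ring gland genes passed in CTCF0. Summed over 7 ring gland genes, Akh included, the level was 190 to 258 CPM in CTCF0, against 162 to 222 CPM in its WT. The ecdysone synthesis gene phtm of the prothoracic gland was at 122, 106 and 89.3 CPM in CTCF0, against 117, 76.7 and 97.1 CPM in its WT. The ecdysone synthesis gene sad overlapped between the groups likewise, with a log2 fold change of -0.0034 ± 0.22. The gene jhamt of the corpora allata, which makes juvenile hormone, was at 6.12, 3.83 and 4.87 CPM in CTCF0, against 3.44, 3.36 and 1.85 CPM in its WT, without overlap, and did not pass (edgeR adjusted p = 0.37). Whether the share of corpora cardiaca in the dissections differed was not tested.

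In the Cp190 experiment the ring gland genes separated libraries rather than groups. Their sum was 17.1 to 33.1 CPM in the 3 libraries labelled Cp190KO, against 13.4, 28.2 and 271 CPM in their WT. WT replicate 3 alone stood at 140 CPM for phtm, while the other 5 libraries of that experiment held 4.19 to 9.39 CPM. Akh did not stand apart in that library, at 12.7 CPM, against 9.25 CPM in WT replicate 2 and 2.76 CPM in WT replicate 1. The libraries labelled Cp190KO held 14.0, 7.01 and 8.75 CPM of Akh, and replicate 1 was the highest of them for Akh and for the ring gland sum. The sum includes Akh, so the sum and Akh are not separate values.

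**Figure D3:**
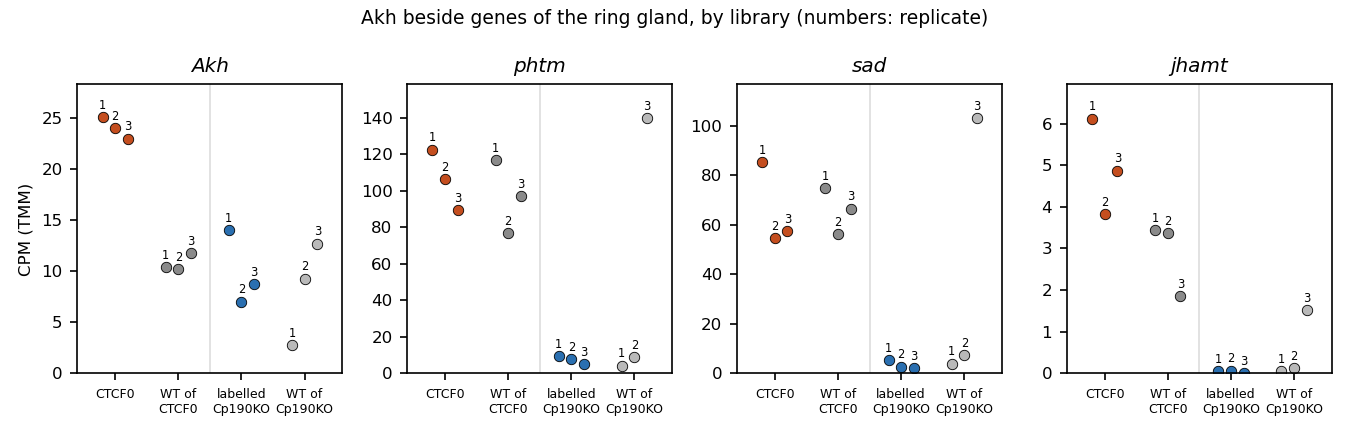
CPM of Akh beside phtm, sad and jhamt in each of the 12 libraries, with points numbered by replicate. Akh lies at 23.0 to 25.0 CPM in CTCF0 against 10.2 to 11.8 CPM in its WT while phtm and sad overlap, and WT replicate 3 of the Cp190 experiment stands apart for phtm at 140 CPM.

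The insulin-like and metabolic hormones held 6 tested genes, of which Akh rose in CTCF0 and the other 5 did not pass. Their median log2 fold change was 0.81 in CTCF0 and 0.29 in the libraries labelled Cp190KO. Ilp2, Ilp3 and Ilp5 are made by the same insulin-producing cells and lie close together on 3L (9799698 to 9823897). Ilp2 was at 285, 284 and 389 CPM in CTCF0, against 144, 223 and 158 CPM in its WT, a log2 fold change of 0.87 ± 0.22 (edgeR adjusted p = 0.10). Ilp3 was at 119, 139 and 103 CPM in CTCF0, against 74.8, 65.8 and 72.1 CPM in its WT, with 0.76 ± 0.17 (edgeR adjusted p = 0.0543). Ilp5 was at 68.6, 74.4 and 108 CPM in CTCF0, against 40.7, 57.9 and 36.4 CPM in its WT, with 0.90 ± 0.25 (edgeR adjusted p = 0.14). For all 3 genes every CTCF0 library was above every WT library. DESeq2 called all 3, with adjusted p of 0.00899, 0.00966 and 0.0175.

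The same genes did not separate in the libraries labelled Cp190KO. Ilp2 was at 176, 454 and 219 CPM there, against 155, 209 and 202 CPM in their WT. Ilp3 was at 96.3, 134 and 98.4 CPM, against 65.4, 103 and 78.2 CPM, and Ilp5 at 62.9, 135 and 70.9 CPM, against 51.5, 124 and 85.5 CPM. Replicate 2 was the highest library of its group for each. Ilp7, made by neurons of the abdominal nerve cord, had log2 fold changes of 0.45 ± 0.31 in CTCF0 and 0.30 ± 0.31 in the libraries labelled Cp190KO. CCHa2, which in larvae is made mainly by fat body and gut, had -0.06 ± 0.20 and -0.03 ± 0.33.

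**Figure D4:**
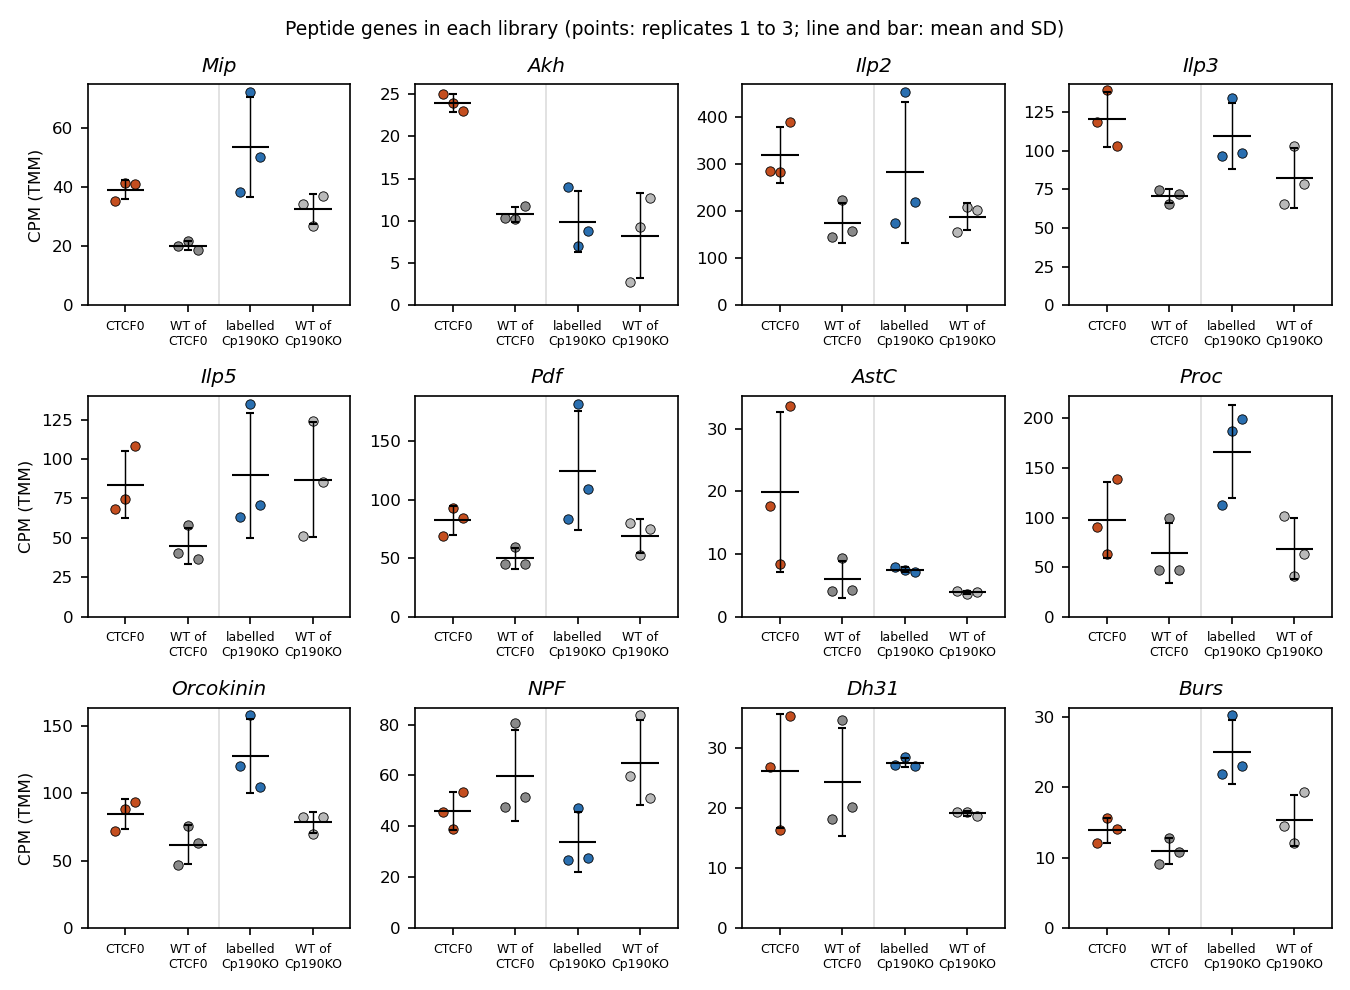
CPM of 12 peptide genes in every library, with CTCF0 and the libraries labelled Cp190KO each left of their WT. Lines and bars are the mean and SD of 3 replicates. Mip, Akh, Ilp2, Ilp3, Ilp5 and Pdf do not overlap between CTCF0 and its WT, and AstC, Proc, Orcokinin, NPF, Dh31, Burs, Mip and Pdf do not overlap between the libraries labelled Cp190KO and their WT.

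In the libraries labelled Cp190KO no peptide gene was DE by edgeR among 34 tested, while 2.41% of all 8599 genes tested were DE. DESeq2 called 4 of the 34 peptide genes, and 440 of all 8599 genes tested. With the group labels as given, the values leaned upward. Of 34 log2 fold changes 27 were positive, with a median of 0.31, against 58.5% positive and a median of 0.08 over all genes tested. If the labels were exchanged, the lean would be downward. At an unadjusted p under 0.05 there were 9 higher and 1 lower, where 7.45% of all genes tested were higher and 5.69% lower. The libraries of the groups did not overlap for 8 higher and 1 lower, against 9.87% and 9.92% of all genes. The median was 0.19 without the library labelled Cp190KO replicate 2, 0.50 without replicate 1, and 0.43 without replicate 3, the library with few low counts.

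AstC (2L, 11076165 to 11081399) encodes C-type allatostatin, named for its block of juvenile hormone synthesis in moths. It was at 7.94, 7.49 and 7.14 CPM in the libraries labelled Cp190KO, against 4.09, 3.70 and 3.88 CPM in their WT. Both groups were tight and did not overlap, with a log2 fold change of 0.95 ± 0.24 (edgeR adjusted p = 0.12, DESeq2 adjusted p = 0.00701). In CTCF0 it was at 17.7, 8.51 and 33.7 CPM, against 4.12, 9.40 and 4.35 CPM in its WT. CTCF0 replicate 2 fell inside the WT range, and the change of 1.76 ± 0.52, the highest estimate among the tested members, did not pass (edgeR adjusted p = 0.17). Without CTCF0 replicate 2 AstC passed, at 2.08 (edgeR adjusted p = 0.0352). Of its receptor genes, AstC-R1 and AstC-R2 had log2 fold changes of 0.03 ± 0.31 and -0.20 ± 0.29 in CTCF0.

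Proc, Orcokinin and Dh31 were also higher in every library labelled Cp190KO than in every WT library, without passing in edgeR. Proc (2L, 7864642 to 7871432) encodes proctolin, which excites muscle. It was at 113, 187 and 200 CPM in the libraries labelled Cp190KO, against 102, 40.9 and 63.1 CPM in their WT, a log2 fold change of 1.28 ± 0.36 (edgeR adjusted p = 0.18, DESeq2 adjusted p = 0.0202). Orcokinin, whose peptides were first found in crayfish, was at 120, 158 and 104.5 CPM, against 82.7, 69.6 and 82.7 CPM in their WT, with 0.70 ± 0.18 (edgeR adjusted p = 0.12, DESeq2 adjusted p = 0.0228). Dh31, the calcitonin-like diuretic hormone, was at 27.2, 28.4 and 27.1 CPM, against 19.4, 19.4 and 18.6 CPM, with 0.53 ± 0.17 (edgeR adjusted p = 0.24). The Dh31 groups had the narrowest spread of the 3 genes, but the change stayed under the fold limit of 1.5. In CTCF0 the groups overlapped for all 3, with log2 fold changes of 0.60 ± 0.37 for Proc, 0.45 ± 0.21 for Orcokinin and 0.11 ± 0.34 for Dh31.

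NPF (3R, 16609220 to 16611325), which encodes neuropeptide F of feeding circuits, was the one member whose libraries were all lower in the libraries labelled Cp190KO. It was at 27.0, 47.4 and 27.5 CPM there, against 59.9, 83.6 and 51.4 CPM in their WT. The nearest libraries of the groups were 47.4 and 51.4 CPM, and the log2 fold change was -0.94 ± 0.29 (edgeR adjusted p = 0.21, DESeq2 adjusted p = 0.0327). Without the library labelled Cp190KO replicate 2 edgeR called it, at -1.25. In CTCF0 it was at 45.5, 38.8 and 53.7 CPM, against 47.5, 80.6 and 51.7 CPM in its WT, a change of -0.38 ± 0.24 with overlapping groups. The receptor gene NPFR had log2 fold changes of -0.27 ± 0.19 in CTCF0 and 0.05 ± 0.31 in the libraries labelled Cp190KO.

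Pdf (3R, 26455462 to 26456141), the output peptide of clock neurons, was higher without overlap both in CTCF0 and in the libraries labelled Cp190KO, and passed in neither. It was at 69.3, 93.3 and 84.7 CPM in CTCF0, against 44.8, 60.1 and 45.1 CPM in its WT, a log2 fold change of 0.72 ± 0.19 (edgeR adjusted p = 0.12, DESeq2 adjusted p = 0.0374). Pdf in the libraries labelled Cp190KO was at 83.8, 182 and 109 CPM, against 79.9, 52.6 and 74.7 CPM in their WT, with 0.85 ± 0.31 (edgeR adjusted p = 0.30). The nearest libraries there were 83.8 and 79.9 CPM.

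Among the other modulatory peptides, amn went the other way in CTCF0. The gene amn (X, 19886108 to 19890060), named amnesiac for its memory phenotype, was at 0.80, 0.14 and 1.45 CPM in CTCF0, against 2.14, 3.19 and 2.49 CPM in its WT. These values rest on 13, 2 and 20 counts, against 38, 37 and 35 counts. The groups did not overlap, and the log2 fold change of -1.70 ± 0.55 did not pass (edgeR adjusted p = 0.23). In the Cp190 experiment it was below 1 CPM in every library and was not tested. The gene spab was at 106, 127 and 99.7 CPM in CTCF0, against 86.2, 84.7 and 73.6 CPM in its WT, with 0.44 ± 0.16 (edgeR adjusted p = 0.30), and overlapped in the libraries labelled Cp190KO at 111, 154 and 104.3 CPM, against 105, 112 and 94.2 CPM. CCHa1, at 3.24, 2.98 and 3.34 CPM in CTCF0, against 2.20, 2.85 and 1.92 CPM in its WT, also did not overlap but missed an unadjusted p of 0.05.

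The ecdysis and moulting hormones held 7 tested genes, with medians of 0.35 in CTCF0 and 0.68 in the libraries labelled Cp190KO. Apart from Mip, none passed in either comparison. Burs, the alpha subunit of the cuticle tanning hormone bursicon, was at 21.9, 30.3 and 23.0 CPM in the libraries labelled Cp190KO, against 14.5, 12.1 and 19.3 CPM in their WT, a log2 fold change of 0.71 ± 0.25 (edgeR adjusted p = 0.28). In CTCF0 it was at 12.1, 15.7 and 14.1 CPM, against 9.20, 12.9 and 10.9 CPM in its WT, and the groups overlapped. Its partner subunit Pburs had 0.56 ± 0.31 in CTCF0 and 0.86 ± 0.44 in the libraries labelled Cp190KO, and CCAP, which is made by some of the same neurons, had 0.30 ± 0.31 and 0.68 ± 0.41. Ptth, which drives ecdysone synthesis in the prothoracic gland, was the one gene of this role with a negative estimate, -0.34 ± 0.20 and -0.46 ± 0.33. Eh, the eclosion hormone, had 0.08 ± 0.18 and 0.05 ± 0.22, and Crz, which encodes corazonin, 0.35 ± 0.21 and 0.32 ± 0.29.

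The most abundant members with a role in water balance, feeding and state had small changes in both comparisons. Capa was at 146, 189 and 134 CPM in CTCF0, against 137, 140 and 129 CPM in its WT, and at 232, 206 and 183 CPM in the libraries labelled Cp190KO, against 189, 154 and 241 CPM in their WT. Hug was at 169, 218 and 188 CPM in CTCF0, against 185, 199 and 146 CPM, and at 231, 316 and 212 CPM in the libraries labelled Cp190KO, against 203, 289 and 282 CPM. SIFa was at 58.4, 51.9 and 53.5 CPM in CTCF0, against 54.1, 52.5 and 53.5 CPM, and at 63.3, 85.2 and 55.6 CPM in the libraries labelled Cp190KO, against 66.9, 77.1 and 71.2 CPM. The groups overlapped for all 3 in both experiments, and no log2 fold change was beyond 0.21 in either direction.

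The other diuretic, myotropic and feeding peptides did not pass. Over the 14 tested genes of this role, medians were 0.22 in CTCF0 and 0.24 in the libraries labelled Cp190KO. Ms, which encodes the muscle-relaxing myosuppressin, had 0.92 ± 0.28 in CTCF0 and 0.86 ± 0.35 in the libraries labelled Cp190KO, with overlapping groups in both. DESeq2 called it in CTCF0. FMRFa, AstA, Tk, Dsk, sNPF, ITP and Dh44 lay between -0.36 and 0.44. FMRFa did not overlap in CTCF0, at 117, 156 and 130 CPM against 111, 106 and 104.1 CPM in its WT. Of the Nplp precursors, Nplp1 had 0.39 ± 0.27 in CTCF0 and 0.81 ± 0.31 in the libraries labelled Cp190KO, and Nplp4 had 0.93 ± 0.78 and -0.12 ± 0.48. CNMa and RYa were below the filter in both comparisons.

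Summed over the 40 genes, the level was 2028, 2086 and 2433 CPM in CTCF0, against 1504, 1925 and 1464 CPM in its WT. In the libraries labelled Cp190KO it was 2122, 3244 and 2215 CPM, against 1907, 1954 and 2096 CPM in their WT. Each CTCF0 library was above each of its WT libraries, and each library labelled Cp190KO was above each of theirs, by a narrow margin. Ilp2 alone gave 284 to 389 CPM of the CTCF0 sums and 176 to 454 CPM of the sums labelled Cp190KO.

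Single libraries moved many peptide genes together. WT replicate 2 of the CTCF experiment was the highest of the 3 WT libraries for 30 of 35 tested members (85.7%), against 41.6% of all genes tested. CTCF0 replicate 3 was the highest of its group for 22 (62.9%), against 45.1% of all genes, and CTCF0 replicate 2 the lowest for 20 (57.1%), near the 48.6% of all genes. The library labelled Cp190KO replicate 2 was the highest of its group for 27 of 34 members (79.4%), against 48.4% of all genes. Its summed neuron markers, at 216 CPM, were the lowest of the 12 libraries. Long genes were also low in that library, as described below, and whether this moved the neuron sum was not tested. The median coefficient of variation of the members among replicates was 16.2% in CTCF0, against 20.3% in its WT, and 32.3% in the libraries labelled Cp190KO, against 19.1% in their WT. Over all genes tested the median was 22.7% in CTCF0, against 11.6% in its WT. It was 19.95% in the libraries labelled Cp190KO, against 13.9% in their WT.

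**Figure D5:**
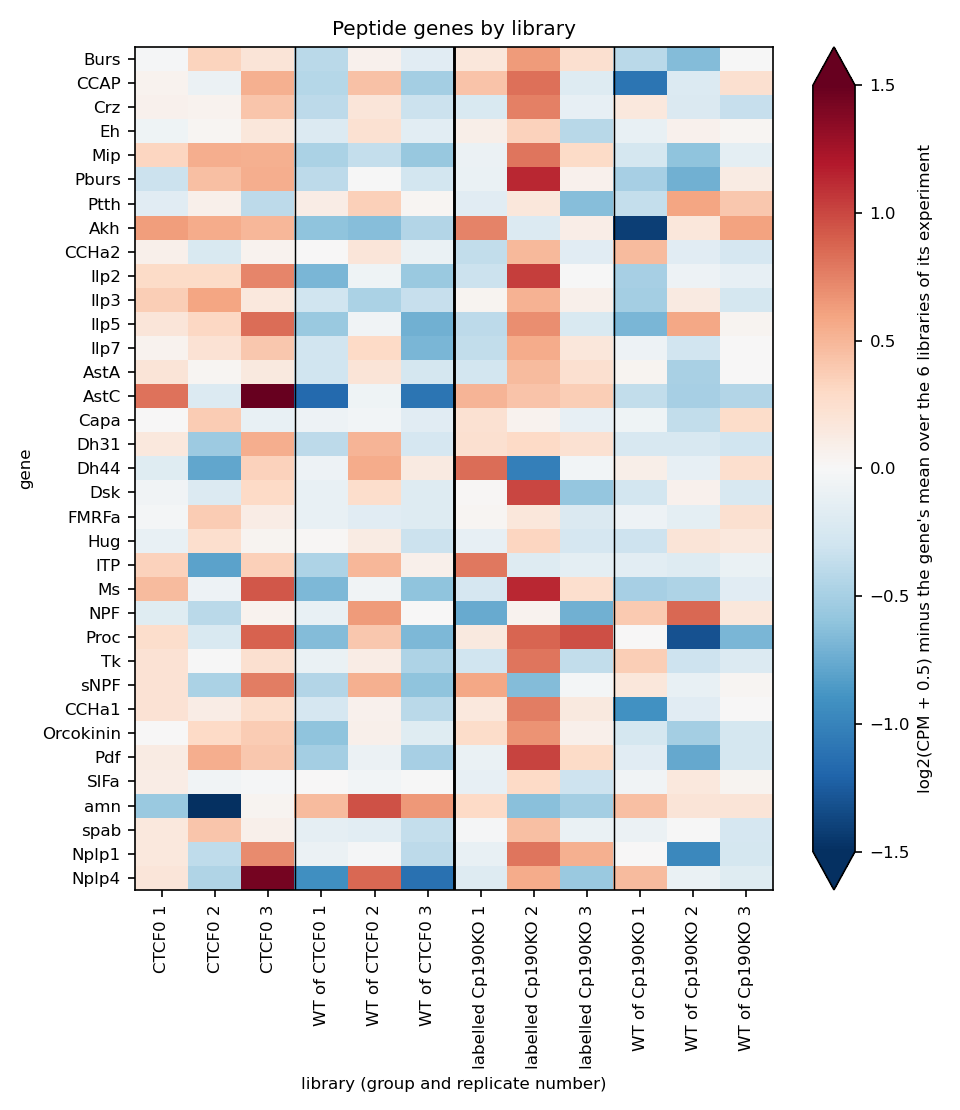
Each tested peptide gene in each library, as log2(CPM + 0.5) minus the mean of that gene over the 6 libraries of its experiment, red above and blue below that mean. WT replicate 2 of the CTCF experiment and the library labelled Cp190KO replicate 2 are the highest of their groups for 30 of 35 and 27 of 34 genes.

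Gene length also moved with the libraries. The 40 members had a median of 1038.5 exonic bases, and 35 had at most 2000. Of all genes tested, those over 5000 exonic bases deviated by a median of 0.73 in the library labelled Cp190KO replicate 1 and by -0.59 in replicate 2, and by -0.48 in CTCF0 replicate 2 and 0.40 in CTCF0 replicate 3, on the log2 scale. Genes of at most 2000 exonic bases had a median log2 fold change of -0.06 in CTCF0 and -0.02 in the libraries labelled Cp190KO, while the members in that length class had 0.40 and 0.31. With each library's trend on exonic length taken out, an alternative chosen after seeing the data, the members' medians were 0.32 in CTCF0 and 0.29 in the libraries labelled Cp190KO.

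The 2 sets of changes were compared directly in one edgeR fit of all 12 libraries, as the change in CTCF0 minus the change in the libraries labelled Cp190KO. Of 36 members tested, 0 were called and 0 had an unadjusted p under 0.05, where 1.42% and 6.89% of all 8954 genes tested did. DESeq2 also called 0. The difference was 0.24 ± 0.31 for Mip, 0.89 ± 0.58 for Akh, 0.80 ± 0.60 for AstC and 0.86 ± 0.50 for Ilp5. With the group labels as given, the DE calls of Mip and Akh in CTCF0 are therefore not shown to be particular to CTCF0. The largest estimates were 1.03 ± 1.01 for Nplp4 and -0.69 ± 0.56 for Proc.

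The wider peptide pathway held few calls. Of 25 tested genes for peptide processing, dense-core vesicles and peptidergic cell fate, none was DE in either comparison by edgeR, with medians of 0.07 in CTCF0 and 0.23 in the libraries labelled Cp190KO. At an unadjusted p under 0.05 there were 2 higher and 0 lower in CTCF0, and 3 higher and 1 lower in the libraries labelled Cp190KO. Over all genes tested 7.78% were higher and 4.35% lower in CTCF0, and 7.45% and 5.69% in the libraries labelled Cp190KO. DESeq2 called 1 of the 25 genes in each comparison. The prohormone convertase gene amon had 0.05 ± 0.19 and 0.06 ± 0.19, and dimm, the transcription factor of neurosecretory cells, 0.55 ± 0.31 and 0.11 ± 0.67. Of the peptide receptor genes, none of 35 tested in CTCF0 and none of 34 in the libraries labelled Cp190KO was DE by edgeR. There were 6 (2 higher, 4 lower) and 2 (1 higher, 1 lower) at an unadjusted p under 0.05, and DESeq2 called 0 and 1. Receptor medians were -0.04 and 0.22, and InR had -0.21 ± 0.26 and 0.49 ± 0.57. Of the other peptide genes listed, 0 of 5 and 0 of 6 were DE by edgeR and by DESeq2, with 1 and 1 at an unadjusted p under 0.05.

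Among 13 listed genes of the response to ecdysone, the steroid whose synthesis Ptth drives, 1 was DE. MsrA, a methionine sulfoxide reductase gene also known as the ecdysone-induced gene Eip71CD, rose in the libraries labelled Cp190KO to 172, 196 and 153 CPM, against 83.2, 91.4 and 101 CPM in their WT. Its log2 fold change was 0.92 ± 0.14 (edgeR adjusted p = 0.0198). The call was lost without any 1 of the WT libraries (edgeR adjusted p = 0.0878 to 0.127). In CTCF0 it was at 131, 150 and 119 CPM, against 79.1, 89.6 and 79.7 CPM in its WT, with 0.69 ± 0.16 (edgeR adjusted p = 0.063). The list's medians were -0.35 in CTCF0, where 0 of 13 were DE and 3 had an unadjusted p under 0.05, and 0.26 in the libraries labelled Cp190KO.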

How the data were processed

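The authors deposited raw read counts per gene for each library, made per the labels and methods from mRNA libraries of a strand-marking kit (CTCF experiment paired-end, Cp190 experiment single-end), mapped to dm6 and counted with HTSeq 0.9.1; the counting strand option is not given in the sources used here. Counts were deposited per sample and summary lines were left out of library sizes. Levels of the 2 experiments were set side by side without a test. Genes that reached 1 CPM in 3 or more libraries were tested with edgeR 4.0.16 in R 4.3.3 (TMM, robust quasi-likelihood, two-sided, Benjamini-Hochberg over all genes tested); SE is the fold change over the root of F. DE means adjusted p under 0.05 and fold over 1.5. CPM values use TMM sizes of the experiment. Names, positions and exonic lengths came from the BDGP6 (dm6) annotation, which held 17405 of 17510 genes. A floor of 3 counts was 0.139 to 0.257 CPM, covering counting error only.

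The members and gene lists were chosen with earlier results of these data known. Given in every library are members that were DE or called in the difference, members with an unadjusted p under 0.05 and no overlap, and the 5 highest per kb in WT; other members shown were chosen after their values were seen. From the other lists, the DE genes and the receptors of DE members are named by rule; any other gene shown was chosen after its values were seen. Replicates are separate pools of 60 CNSs. Alternatives were RLE, upper-quartile or no scaling factors, DESeq2 1.42.0, other filters, no fold limit, a replicate block, one fit of 12 libraries, each library left out, and exonic length adjustment (loess, span 0.3). The edgeR and DESeq2 fits of each comparison were also run on simulated data, and the outcome is not given here.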

Additional observations from a re-analysis of the deposited data

How the results depend on the processing

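Mip and Akh, the 2 members DE in CTCF0, kept positive log2 fold changes under all 16 alternatives. Both were DE with RLE, upper-quartile or no scaling factors, with DESeq2, with either other filter and after exonic length adjustment. Dropping the fold limit leaves the main fit as it is, so it could not lose a call. One fit of all 12 libraries called Mip and AstC and lost Akh (edgeR adjusted p = 0.28). Leaving out 1 library gave 0 to 6 members in CTCF0: 6 without CTCF0 replicate 2, 3 without CTCF0 replicate 3, and 0 without CTCF0 replicate 1 or any 1 of the WT libraries, where adjusted p was 0.0542 to 0.179 for the pair. DESeq2 called 8 of 35 members in CTCF0 (Akh, AstC, Ilp2, Ilp3, Ilp5, Mip, Ms, Pdf), against 392 of all 8718 genes. No filter beyond 1 count called 4 of 37 members, against 382 of 14203 genes. Exonic length adjustment, chosen after seeing the data, called 4 of 35 members, against 321 of 8718 genes. In the libraries labelled Cp190KO DESeq2 called 4 (AstC, Orcokinin and Proc higher, NPF lower), and leaving out 1 library gave 0 to 1. The difference between changes gave 0 under all 21 alternatives. Over all genes, DESeq2 called 392 against 245 in CTCF0 and 440 (248 higher, 192 lower) against 207 in the libraries labelled Cp190KO. The edgeR calls over all genes in CTCF0 also moved with the library left out. There were 556 without CTCF0 replicate 2, 163 without CTCF0 replicate 3, and 90 to 166 where 0 members were called.

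In the CTCF experiment same-numbered libraries did not deviate together from the means of their groups. Deviations of same-numbered libraries correlated there at -0.18, -0.53 and -0.50, against -0.28 to 0.56 for different numbers. In the Cp190 experiment they correlated at 0.08, 0.51 and -0.01, against -0.39 to 0.40. The replicate 2 pair was the highest there, so these values do not settle whether those samples were paired. With the replicate block 0 members were DE in CTCF0, where Akh and Mip had edgeR adjusted p of 0.0915 and 0.12, 0 in the libraries labelled Cp190KO and 0 in the difference.

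Of 702 recomputed log2 fold changes over 42 results, 636 kept direction and call, 21 lost a call, 25 gained one and 20 changed sign, all 20 in results that had not passed. Leaving out 1 library gave 17 of these: in CTCF0 ranges were -0.16 to 0.42 for Dh31, -0.028 to 0.19 for Hug and -0.034 to 0.052 for SIFa, and in the libraries labelled Cp190KO -0.079 to 0.27 for Capa, -0.22 to 0.093 for Hug, -0.38 to 0.36 for Ilp5, -0.27 to 0.057 for SIFa and -0.15 to 0.73 for Akh. The other 3 were Ilp5 in the libraries labelled Cp190KO, at -0.0045 with RLE factors, -0.018 with library totals and -0.0047 with DESeq2. The 636 values that kept direction and call include those without the fold limit, which repeat the main estimates.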

Other observations

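The WT CNSs of the 2 experiments are set side by side here without a test, because read layout and instrument differed between them. Of the 37 detected peptide genes, 6 were higher in every WT library of the Cp190 experiment than in every WT library of the CTCF experiment, and 2 were lower in every one. Of the 36 members that passed the filter over 12 libraries these were 16.7% and 5.56%, while of all 8954 genes that passed 12.6% were higher and 30.1% lower, so non-overlap between these controls was common. Mip was at 32.7 ± 5.17 CPM in the WT of Cp190KO and 20.2 ± 1.51 CPM in the WT of CTCF0 (SD, n = 3 each). Capa was at 195 ± 43.8 CPM and 135 ± 6.20 CPM in the same order, Hug at 258 ± 48.0 and 177 ± 27.3, and SIFa at 71.7 ± 5.13 and 53.4 ± 0.78. The others that were higher were FMRFa and spab. The 2 lower genes were AstC, at 3.89 ± 0.19 CPM in the WT of Cp190KO and 5.96 ± 2.99 CPM in the WT of CTCF0, and amn, at 0.56 ± 0.11 and 2.61 ± 0.53. The ratio between the WT means of Mip was 1.62, against a ratio of 1.94 between CTCF0 and its own WT.

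Muscle genes were among the marker lists used to check the tissue, and 1 of the 6 was DE. Mlc2, a myosin light chain gene, was at 19.6, 22.7 and 24.1 CPM in CTCF0, against 6.55, 11.5 and 5.63 CPM in its WT, a log2 fold change of 1.498 ± 0.29 (edgeR adjusted p = 0.0306). The call was lost with library totals only (0.0592), with the replicate block (0.0521), and without CTCF0 replicate 1 or 3 or WT replicate 1 or 3 (0.0552 to 0.186, all edgeR adjusted p). Summed over the 6 genes the level was 49.4 to 61.7 CPM in CTCF0, against 27.1 to 35.5 CPM in its WT. In the libraries labelled Cp190KO the sum was 38.6 to 117 CPM, against 53.2 to 73.4 CPM in their WT. Of the glia genes, alrm was at 260, 287 and 267 CPM in CTCF0, against 124, 194 and 131 CPM in its WT, and at 206, 310 and 192 CPM in the libraries labelled Cp190KO, against 114, 122.7 and 150 CPM in their WT. Neither alrm change passed in edgeR (adjusted p of 0.0724 and 0.0995). Of the 5 glia genes, 2 were higher and 0 lower in CTCF0 at an unadjusted edgeR p under 0.05. In the libraries labelled Cp190KO 3 were higher and 1 was lower, with a log2 fold change of -0.38.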
